A study of Mus musculus with 4 samples.

Results

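The 9 genes described here are 7 genes of white fat cells (Adipoq, Plin1, Cidec, Car3, Fabp4, Lpl and Cfd) together with Pck1 and Rbp4, out of 19465 genes measured by spatial transcriptomics in a mouse model of metastatic breast cancer. They were taken by gene symbol. Pck1 and Rbp4 are abundant in liver and belong to a stromal signature that the study derived from human liver metastases and then applied to these mouse sections, and the question was whether in the mouse sections these genes lie where fat lies. The members were selected on results of the same sections. Rbp4 was picked for its loss in share of UMIs in tumour-like lung spots, and the levels per section were known for all members, so both of these are given below as a description.

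The data came from 2 BALB/c mice, each injected in the mammary fat pad at 8 weeks of age with 100000 cells of 4T1, a mouse triple-negative mammary carcinoma line, and sacrificed 28 days later. One section (4 µm) of the primary tumour and one of the lung of each mouse were profiled with 10x Visium on fixed, paraffin-embedded tissue, so each tissue had n = 2 sections and both tissues came from the same animals, called mouse A and mouse B. No untreated mouse was included and both mice carried the same cell line. In this assay pairs of probes are hybridised to each transcript, ligated probes are captured in a spot that may hold several cells, and each captured molecule counts as 1 unique molecular identifier (UMI).

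After spots with 200 or fewer genes were left out, 9339 of 9445 spots remained, and the 4 sections held 10890154 to 30240176 UMIs, with a median of 1820 to 9174.5 UMIs per spot. The tissue labels were matched by their markers. Summed over 4 alveolar genes the lungs reached 12450.5 and 7095 CPM, UMIs per 1000000 UMIs of the section, against 10.9 and 30.9 in the primary tumours, and summed over 4 genes of 4T1 cells the primary tumours reached 3817 and 4661 CPM against 88.7 and 1040 CPM in the lungs of mouse A and mouse B. A background can be read from 1178 olfactory and vomeronasal receptor genes, which neither tissue is known to use. Their median was 0.591 CPM in the primary tumour of mouse A, 0.180 CPM in the lung of mouse A, 6.61 CPM in the primary tumour of mouse B and 0.132 CPM in the lung of mouse B, so that the primary tumour of mouse B stood far above the other sections.

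White fat cells store triglyceride in 1 large droplet and release fatty acids when other tissues need fuel. Plin1 coats the droplet and gates lipolysis, and Cidec lets droplets fuse and grow. Lpl frees fatty acids from lipoproteins at the vessel wall, is made by muscle and heart as well as by fat, and Fabp4 carries fatty acids inside fat cells, some endothelial cells and macrophages. Adipoq encodes adiponectin and Cfd encodes complement factor D (adipsin), both secreted by fat, and Car3 is a carbonic anhydrase abundant in fat and muscle. Pck1 encodes the cytosolic phosphoenolpyruvate carboxykinase, which drives gluconeogenesis in liver and kidney and, in fat, glyceroneogenesis, the supply of glycerol 3-phosphate for triglyceride. Rbp4 encodes the plasma carrier of retinol, made chiefly in liver and also in fat. Levels are compared between places for 1 gene at a time and not between genes, since the number of probe pairs differs from gene to gene.

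The upstream sequences of 4 members are shown for the 2 genes in question, Pck1 and Rbp4, and for Adipoq and Cfd as genes of fat. They are RefSeq start site windows on GRCm38, the build of the deposited files (mm10), which held 6 of the 9 members. Car3, Fabp4 and Lpl were not in this table. Only stretches that lie before the gene as GENCODE draws it are shown, and the nearer of the 2 start sites of Rbp4 lies inside it. Pck1 lies on chr2:173153048-173159273 (+), Adipoq on chr16:23146536-23158028 (+), Cfd on chr10:79890853-79892655 (+) and Rbp4 on chr19:38116629-38125281 (-), all protein coding. The windows are 225 bases at chr2:173152823-173153047 (+) for Pck1, and 250 bases each at chr16:23146286-23146535 (+) for Adipoq, chr10:79890603-79890852 (+) for Cfd and chr19:38125322-38125571 (-) for the farther start of Rbp4, 5′ to 3′ on the strand of the gene:
Pck1: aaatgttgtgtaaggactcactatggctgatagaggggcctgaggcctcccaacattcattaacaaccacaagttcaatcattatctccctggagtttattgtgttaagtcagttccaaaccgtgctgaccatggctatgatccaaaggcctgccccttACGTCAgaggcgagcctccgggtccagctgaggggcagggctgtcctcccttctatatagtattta
Adipoq: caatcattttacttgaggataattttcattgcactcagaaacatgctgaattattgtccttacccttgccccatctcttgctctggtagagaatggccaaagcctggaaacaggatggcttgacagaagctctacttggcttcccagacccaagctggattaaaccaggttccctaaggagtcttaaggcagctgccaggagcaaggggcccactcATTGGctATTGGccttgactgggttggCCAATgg
Cfd: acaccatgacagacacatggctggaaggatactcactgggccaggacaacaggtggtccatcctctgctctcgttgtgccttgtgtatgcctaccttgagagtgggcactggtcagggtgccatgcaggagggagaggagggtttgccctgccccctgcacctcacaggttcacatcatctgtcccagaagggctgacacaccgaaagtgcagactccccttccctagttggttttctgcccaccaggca
Rbp4: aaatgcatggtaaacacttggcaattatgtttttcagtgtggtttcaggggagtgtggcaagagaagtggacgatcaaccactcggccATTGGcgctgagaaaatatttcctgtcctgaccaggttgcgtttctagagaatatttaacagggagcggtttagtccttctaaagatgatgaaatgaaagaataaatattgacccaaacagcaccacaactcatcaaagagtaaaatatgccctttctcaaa
Capitals mark matches, on either strand, to 6 motifs: TGACGT (a cAMP response element core), AGGTCA (a nuclear receptor core site), the DR1 element (a pair of AGGTCA with 1 base between them, so that it contains the former), TTGCNNAA (C/EBP), TATAAA and CCAAT. The Pck1 window held 1 match, to TGACGT on the opposite strand, 91 to 86 bases before the RefSeq start. That motif occurred in 6.47% of 32851 windows of 250 bases. The Adipoq window held 3 matches to CCAAT and the Rbp4 window 1, a motif of 33.8% of windows, and the Cfd window held none of the 6. Thus the windows of Pck1, Adipoq and Cfd shared no motif among these letters, which says nothing of the factors that bind there.

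Described by section, the defining genes of fat were at background in both primary tumours and above it in both lungs. Adipoq was counted 6 and 59 times in the primary tumours of mouse A and mouse B (0.443 and 5.42 CPM), where 30.5% and 31.4% of the receptor genes had fewer UMIs. In the lungs it was counted 12 and 50 times (1.08 and 1.65 CPM), above 99.5% and 99.9% of the receptor genes. Mammary fat was therefore not detectable in the tumour sections at this depth, although the cells had been placed in the mammary fat pad. Plin1 gave 4 and 36 UMIs in the primary tumours of mouse A and mouse B (0.296 and 3.31 CPM) and 17 and 57 UMIs in the lungs (1.53 and 1.88 CPM). Cidec gave 1 and 29 UMIs in the primary tumours (0.0739 and 2.66 CPM) and 37 and 113 UMIs in the lungs (3.33 and 3.74 CPM). In CPM the primary tumour of mouse B stood above both lungs for Adipoq and Plin1, although all 3 genes lay below the median of the receptor genes of that section.

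Car3 and Cfd, which fat makes in large amounts, separated the tissues more clearly. Car3 stood at 0.591 and 5.69 CPM in the primary tumours and at 14.7 and 16.0 CPM in the lungs, and Cfd at 0.517 and 5.88 CPM against 14.1 and 23.6 CPM. In the primary tumour of mouse B both genes lay below the median of the receptor genes (6.61 CPM). Fabp4 did not separate the tissues, with 20.5 and 34.3 CPM in the primary tumours and 17.4 and 35.9 CPM in the lungs, and it was above 99.3% or more of the receptor genes in every section. Lpl was at 28.7 and 8.91 CPM in the primary tumours and at 69.4 and 65.7 CPM in the lungs.

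Pck1 and Rbp4 followed different patterns already at this level. Pck1 gave 4 and 58 UMIs in the primary tumours (0.296 and 5.33 CPM) and 16 and 48 UMIs in the lungs (1.44 and 1.59 CPM), and in the primary tumours it was within the range of the receptor genes. Rbp4 gave 17 and 4 UMIs in the primary tumours (1.26 and 0.367 CPM) and 146 and 170 UMIs in the lungs (13.1 and 5.62 CPM). Its primary tumour level, like that of Lpl, was lower in mouse B than in mouse A. Only 1.53% of the receptor genes in that section of mouse B had fewer UMIs.

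**Figure D1:**
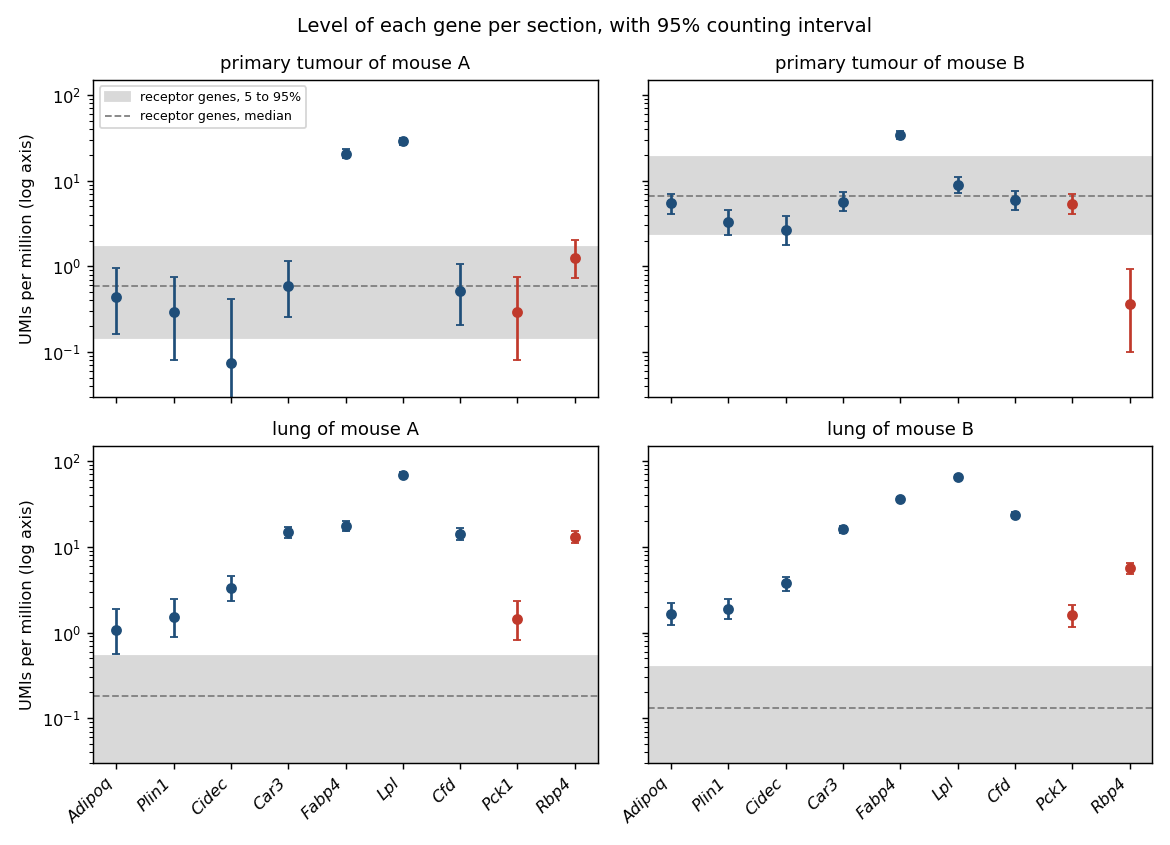
Level of each member in CPM (log axis) in the 4 sections, with exact Poisson 95% intervals that cover counting error only, and the 5 to 95% range and median of 1178 receptor genes in grey. Adipoq, Plin1, Cidec, Car3, Lpl, Cfd and Pck1 (5.33 CPM) lie inside the grey range in the primary tumour of mouse B, and all 9 members lie above it in both lungs.

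Summed per section and tested over 15267 genes by edgeR (TMM, quasi-likelihood test, Benjamini-Hochberg adjustment), 7.46% of genes were called between lung and primary tumour (6.31% higher in the lung and 1.15% lower). That balance depended on the tool, since DESeq2 called 1676 genes higher and 2035 lower. Of the 9 members 1 was called, as higher. Lpl was higher in the lung by 2.12 on the log2 scale (SE 0.55, adjusted p = 0.0492), in both mice. The log2 difference was 3.83 (SE 1.13, adjusted p = 0.0777) for Rbp4, 2.88 (adjusted p = 0.105) for Cfd and 2.63 (adjusted p = 0.134) for Car3, and none of these passed. With the mouse as a replicate block, which pairs the sections by animal, edgeR called Cfd (3.56, adjusted p = 0.00287) and Car3 (3.26, adjusted p = 0.0262) and not Rbp4 (3.93, adjusted p = 0.0769). With the pairs crossed, chosen after the data were seen, edgeR called Cfd, Car3 and Rbp4 (adjusted p = 5.55e-06, 7.68e-05 and 0.00271). Cfd and Car3 were thus called under either block but not in the main fit, which had none. Without a block, Cfd and Car3 were also called by DESeq2 (adjusted p = 0.00475 and 0.0113) and by edgeR with no filter (adjusted p = 0.000746 and 0.00738). Their calls under the block can therefore not be credited to pairing the sections by animal. For Pck1 the log2 difference in the main edgeR fit was -0.55 (SE 1.68, adjusted p = 0.894). The 2 mice went in opposite directions, 2.28 in mouse A and -1.75 in mouse B. Since the levels per section were known when the genes were chosen, these values support nothing further. Without the primary tumour of mouse B, an alternative chosen after the data were seen, Cfd (5.31, adjusted p = 0.000415), Car3 (4.85, adjusted p = 0.00196) and Cidec (5.61, adjusted p = 0.0231) were called by edgeR and Lpl was not (1.40, adjusted p = 0.227), while Pck1 stood at 2.49 (adjusted p = 0.361). Fewer cells of a type and less RNA per cell cannot be told apart in such sums.

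Within the lung sections the fat genes were highest in small patches of spots, and much of Pck1 was counted there. Spots were marked as fat by 3 or more UMIs summed over Adipoq, Plin1 and Cidec. In the lungs this marked 1 of 1697 spots for mouse A and 20 of 2780 for mouse B, and in the primary tumours 0 of 2490 and 0 of 2372, so that only 1 section had the 5 spots needed for a pair and the contrast could not be tested in replicate. Its values in the lung of mouse B are given with counting intervals. The 20 spots held 0.461% of the UMIs of that section, and 13 of them touched another marked spot. The 1 marked spot of mouse A held 0 UMIs of Pck1, so that under this mark the values rest on mouse B alone.

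In these 20 spots Pck1 reached 158 CPM (95% interval 98.8 to 239, 22 UMIs) against 0.864 CPM in all other spots of the section, a log2 ratio of 7.51 (6.62 to 8.39). They held 45.8% of all Pck1 UMIs of the section (Clopper-Pearson 95% interval 31.4 to 60.8%). Among the fat genes that did not mark the spots the share was 46.5% for Car3 (225 of 484 UMIs) and 48.8% for Cfd (348 of 713 UMIs). Fabp4 had 25.5% of its UMIs there (277 of 1085), and Lpl 2.06% (41 of 1986).

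Rbp4 was raised in the same spots but little of it lay there. It reached 43.0 CPM (15.8 to 93.6, 6 UMIs) against 5.45 CPM elsewhere, a log2 ratio of 2.98 (1.51 to 4.13), whose interval does not overlap that of Pck1. The share of its UMIs in the fat-marked spots was 3.53% (1.31 to 7.52%), 6 of 170. The spot with the most Pck1 in this section held 7 UMIs of it together with 46 UMIs of Car3, 51 of Fabp4 and 72 of Cfd, and none of Rbp4. The next 2 spots tied at 3 UMIs of Pck1, with 31 and 6 UMIs of Car3, 41 and 15 of Cfd and 0 and 1 of Rbp4.

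Because 3 UMIs of low genes are a demanding mark, a wider one was added after the data were seen, 5 or more UMIs summed over Adipoq, Plin1, Cidec, Car3 and Cfd. With it, the lungs had 20 (mouse A) and 62 (mouse B) marked spots and the primary tumours none. Of these spots 19 and 55 touched another one. Cidec was also counted far from them in mouse A, where 9 of its 37 UMIs lay in marked spots and 19 lay 10 or more steps of the array away. The 5 marking genes are high in the marked spots by construction, whereas Fabp4, Lpl, Pck1 and Rbp4 were not used.

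Pck1 behaved alike in both lungs under this mark. In mouse A it reached 61.2 CPM (29.4 to 113) in the marked spots against 0.547 CPM elsewhere, with 10 of its 16 UMIs there (62.5%, 35.4 to 84.8%). In mouse B it reached 78.1 CPM (54.4 to 109) against 0.436 CPM, with 35 of its 48 UMIs there (72.9%, 58.2 to 84.7%). Seen from the other side, 7 of the 12 spots with a Pck1 UMI in mouse A and 19 of the 32 in mouse B were fat-marked, against 0.772% and 1.56% of the spots without one. The spots with and without Pck1 had a median of 7661 and 6543 UMIs in mouse A and of 6502 and 9195 UMIs in mouse B.

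Rbp4 reached 55.1 CPM (25.2 to 105) in the wider marked spots of mouse A against 12.5 CPM elsewhere, and 33.5 CPM (18.7 to 55.2) against 5.20 CPM in mouse B. Only 9 of 146 UMIs (6.16%, 2.86 to 11.4%) and 15 of 170 UMIs (8.82%, 5.02 to 14.1%) lay in marked spots. Fabp4 was at 569 and 1062 CPM in the marked spots against 9.22 and 20.4 CPM elsewhere. Lpl was at 91.8 CPM against 69.1 CPM in mouse A, a log2 ratio of 0.41 whose interval (-0.43 to 1.14) spans 0, and at 272 CPM against 62.6 CPM in mouse B.

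**Figure D2:**
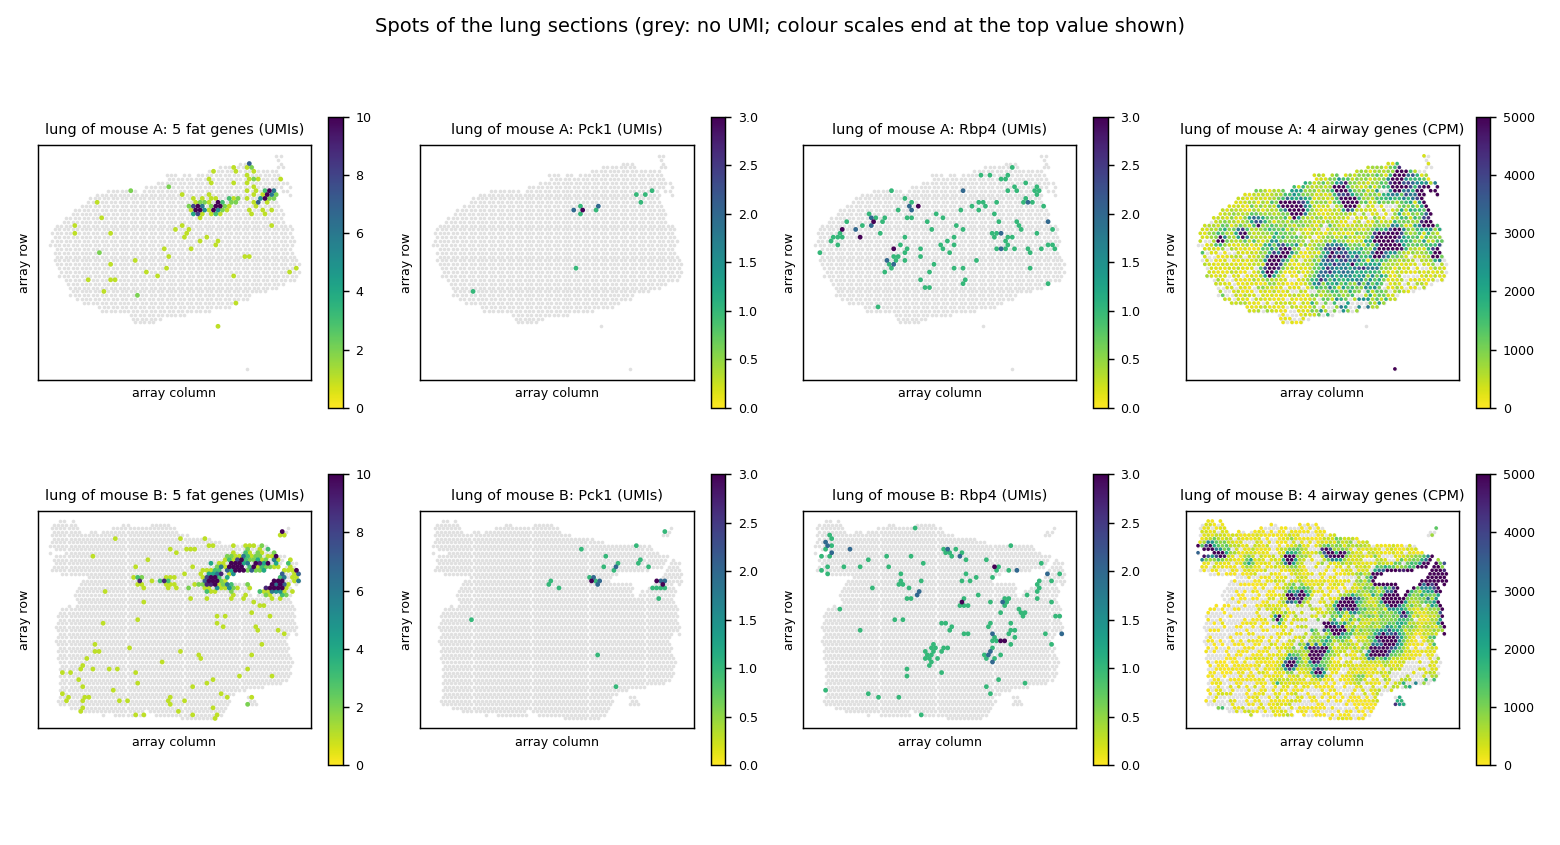
Spots of the 2 lung sections at their array positions, coloured by the UMIs of Adipoq, Plin1, Cidec, Car3 and Cfd summed, the UMIs of Pck1, the UMIs of Rbp4, and the CPM of 4 airway genes summed, with grey for no UMI. Pck1 falls on the few patches of the fat genes (10 of 16 and 35 of 48 UMIs in marked spots), while Rbp4 is spread over the sections, with 43.8% and 45.3% of its UMIs in spots of 3000 or more airway CPM outside the fat mark.

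With distance from the wider marked spots, counted in steps of the hexagonal spot array, Pck1 fell steeply, as did Fabp4. In mouse B it went from 78.1 CPM in marked spots to 7.51 CPM at 1 step, 1.41 CPM at 2 steps and 0.130 CPM (0.0269 to 0.381) at 10 steps or more. In mouse A it went from 61.2 to 11.2 and 2.85 CPM. No UMI was counted there in the 139 spots at 3 to 4 steps or the 290 spots at 5 to 9 steps, and 2 UMIs (0.265 CPM) at 10 steps or more. Fabp4 fell from 1062 to 233, 84.9 and finally 11.8 CPM in mouse B and from 569 to 115, 48.4 and finally 2.25 CPM in mouse A. Rbp4 instead stood at 11.4 CPM at 10 steps or more in mouse A and at 4.04 CPM in mouse B. In mouse A it had 0 UMIs in the 53 spots at 2 steps, which allows up to 10.5 CPM. Lpl was nearly level in mouse A (91.8 CPM in marked spots, 70.0 CPM at 10 steps or more) and fell in mouse B from 272 to 123, 82.1 and finally 55.5 CPM.

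**Figure D3:**
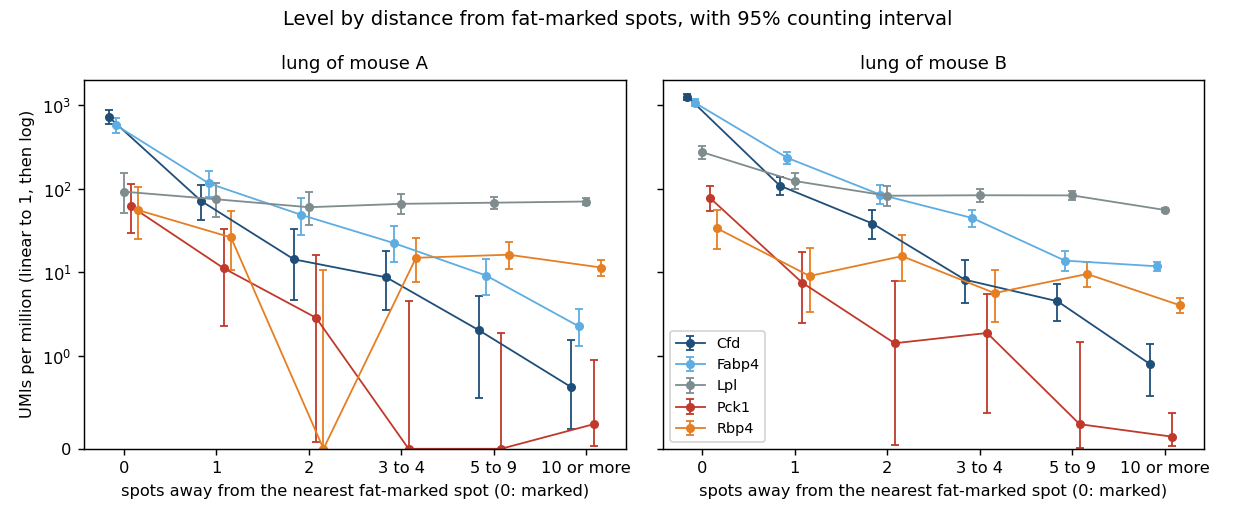
CPM (axis linear to 1, then logarithmic) of 5 members by the number of spots to the nearest fat-marked spot in each lung, with exact Poisson 95% intervals for counting error. Cfd is one of the 5 marking genes and so high at 0 by construction. Pck1 falls from 61.2 and 78.1 CPM to under 0.3 CPM, whereas Rbp4 stays at 11.4 and 4.04 CPM in the farthest spots.

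A test in replicate was possible with a lower mark, 1 or more UMIs of Adipoq, Plin1 or Cidec, which took 53 and 107 spots in the lungs of mouse A and mouse B and 11 and 120 in the primary tumours. The sums of marked and of other spots were compared by edgeR with the section as a block, and Car3, Cfd, Fabp4, Lpl, Pck1 and Rbp4 were read, since the marking genes are higher by construction. In the 2 lung sections 1.68% of 13061 genes were called (1.49% as higher), and 5 of the 6 members were, all of them higher. Over the 6 members the median log2 fold change was 4.64, against -0.03 over all genes. The list is one of genes put together as fat genes, so its count is no independent evidence.

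Pck1 was higher in the marked lung spots by 5.03 on the log2 scale (SE 0.52, adjusted p = 1.08e-11, edgeR), at 16.6 against 0.841 CPM in mouse A and 28.7 against 0.650 CPM in mouse B. Cfd was higher by 5.58 (SE 0.16), Car3 by 5.56 (SE 0.17) and Fabp4 by 4.25 (SE 0.13), in both mice. These 4 genes were also called when the lungs were fitted by DESeq2 (adjusted p = 1.36e-09 for Pck1) or by edgeR with library sizes only or with a robust prior. Lpl was higher by 0.72 (SE 0.16, adjusted p = 0.00282, edgeR), but its values were 68.9 against 69.4 CPM in mouse A and 135 against 63.3 CPM in mouse B, and it was not called by DESeq2 (adjusted p = 1.00) or with a robust prior (adjusted p = 0.181).

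Rbp4 was not called in the lungs, at 0.82 on the log2 scale (SE 0.42, adjusted p = 0.594, edgeR), with 16.6 against 13.0 CPM in mouse A and 12.8 against 5.37 CPM in mouse B. None of the 4 lung fits called it. These p-values pool the spread over all genes and rest on 2 animals.

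Over all 4 sections 1.21% of 18814 genes were called (1.03% as higher), among them 5 of the 6 members, and the difference was 3.48 for Pck1 (SE 0.38, adjusted p = 3.68e-17) and 0.74 for Rbp4 (SE 0.46, adjusted p = 0.629) by edgeR. These calls depended on the tool. DESeq2 on the 4 sections called none of the 6 members, with adjusted p = 0.219 for Pck1, 0.248 for Car3, 0.246 for Cfd and 1.00 for Fabp4 and Lpl. With a robust prior edgeR called Lpl (adjusted p = 0.0176) and not Pck1 (0.623), Car3 (0.297), Cfd (0.279) or Fabp4 (0.490). In the primary tumours alone Pck1 stood at -1.31 (adjusted p = 0.815). With 300 CPM of the marking genes as the mark Rbp4 was called by edgeR (3.06, adjusted p = 0.00641), in a fit that only the sections of mouse B could enter. In its lung Rbp4 was at 53.5 CPM (23.1 to 105, 8 UMIs) in spots so marked against 5.38 CPM elsewhere, and in its primary tumour at 0 UMIs. The difference of the contrast between lung and primary tumour was itself called by edgeR for Pck1 (6.26, SE 0.88, adjusted p = 3.40e-09), Cfd (4.47), Car3 (4.41) and Fabp4 (3.96), among 0.0904% of genes called, and not for Lpl (0.45) or Rbp4, which had no UMI in the marked spots of the primary tumours.

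**Figure D4:**
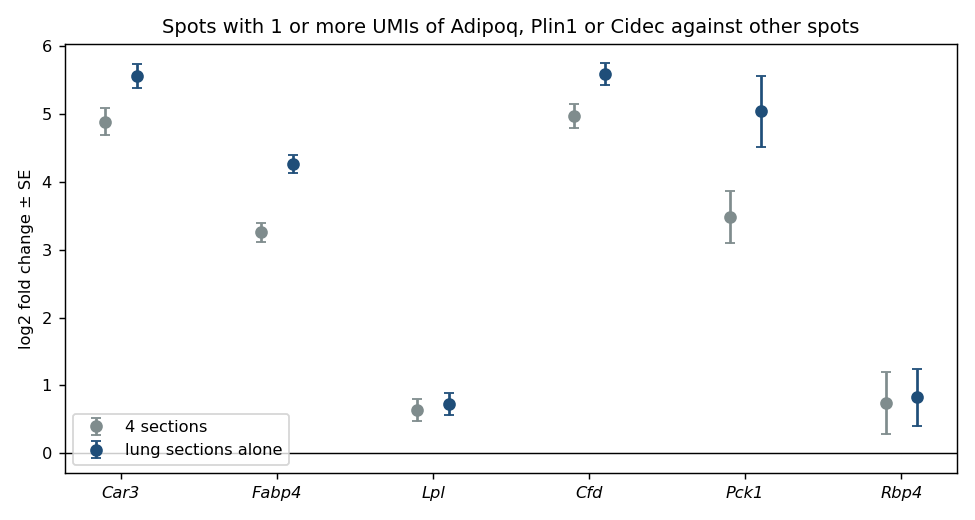
Log2 fold change ± SE of the 6 members that do not mark spots, between spots with 1 or more UMIs of Adipoq, Plin1 or Cidec and all other spots, over 4 sections (grey) and in the 2 lung sections alone (blue). Car3, Fabp4, Cfd and Pck1 lie between 4.25 and 5.58 in the lungs, and Lpl and Rbp4 lie under 1.

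The spots where Rbp4 did lie were rich in genes of the airway lining. Its UMIs were read in spots split by the summed CPM of Scgb3a2 and Cyp2f2, which club cells make, and Foxj1 and Tppp3, which ciliated cells make, a split chosen after the data were seen. Outside the wider fat mark Rbp4 was at 3.03, 6.40, 16.2 and 43.2 CPM in mouse A, and at 1.45, 4.12, 15.7 and 42.4 CPM in mouse B, for spots with under 300, 300 to 1000, 1000 to 3000 and 3000 or more airway CPM. The highest class held 13.3% and 6.01% of the UMIs of the lungs but 43.8% and 45.3% of those of Rbp4. Pck1 had 0 UMIs in this class outside the fat mark in both lungs, 228 and 238 spots, which with 95% confidence allows up to 2.49 and 2.03 CPM. Fat-marked spots of the same airway level held 5 of its 16 UMIs in mouse A and 14 of its 48 in mouse B.

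The same split was applied to the fat-marked spots. In the highest airway class Rbp4 was at 40.4 CPM (8.33 to 118) in fat-marked spots and 43.2 CPM (33.3 to 55.2) in other spots of mouse A, and at 58.4 CPM (23.5 to 120) and 42.4 CPM (33.4 to 52.9) in mouse B, with overlapping intervals. Below that class Rbp4 was higher in the fat-marked spots in 5 of 6 cases, on few UMIs. At 1000 to 3000 airway CPM it was at 101 CPM (27.4 to 258) against 16.2 CPM (11.4 to 22.3) in mouse A, the 1 case in which the intervals did not overlap, and at 36.7 CPM (11.9 to 85.6) against 15.7 CPM in mouse B. At 300 to 1000 airway CPM it was at 46.8 CPM (5.67 to 169) against 6.40 CPM in mouse A and at 20.9 CPM (2.53 to 75.3) against 4.12 CPM in mouse B. Under 300 airway CPM it was at 10.4 CPM (0.263 to 57.9, 1 UMI in 12 spots) against 1.45 CPM in mouse B, and the 1 fat-marked spot of mouse A had 0 UMIs, which allows up to 555 CPM. Thus the point values of Rbp4 in fat-marked spots were mostly above those of other spots of like airway level, and the counts were too few to tell most of them apart. Of the fat-marked spots, 14 of 20 in mouse A and 37 of 62 in mouse B had 1000 or more airway CPM. Pck1 was at 25.1 to 301 CPM in the fat-marked spots of every class and at 1.31 CPM or less in the other spots.

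**Figure D5:**
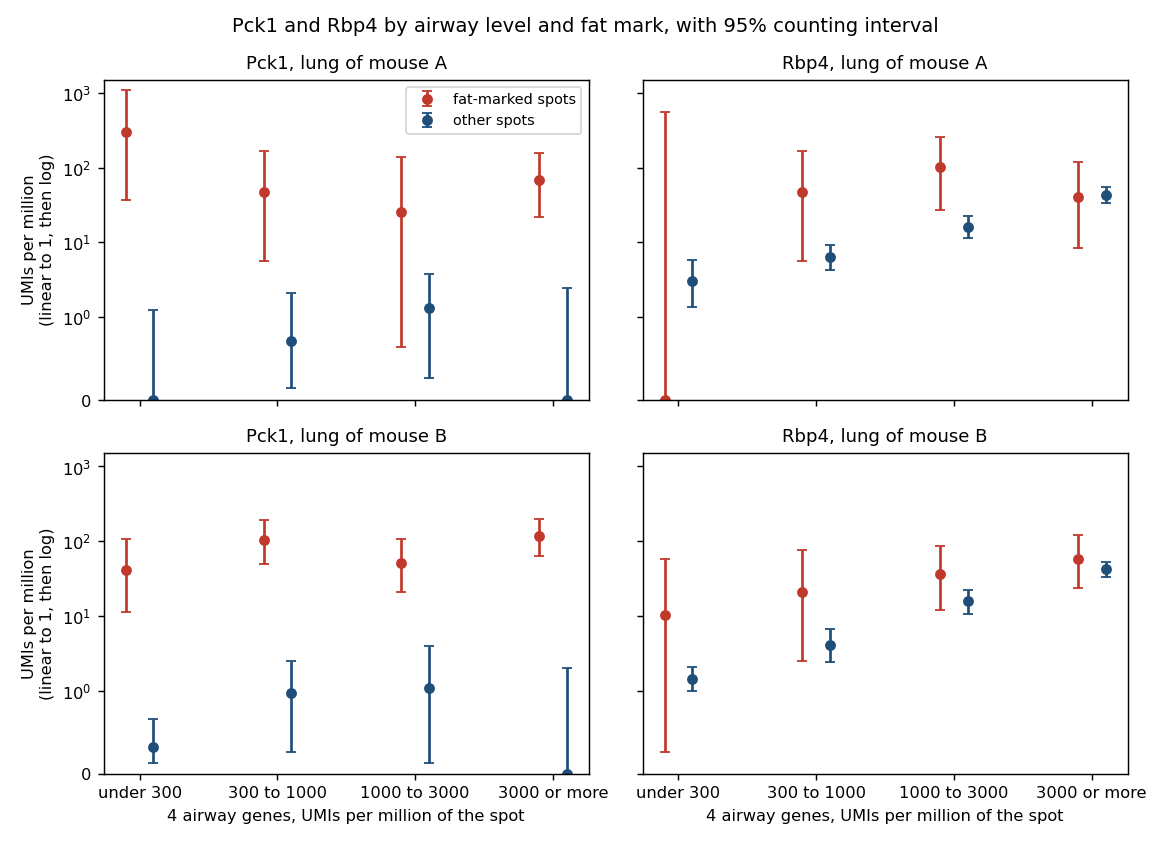
CPM of Pck1 and Rbp4 (axis linear to 1, then logarithmic) in lung spots split by the CPM of 4 airway genes, for spots with the wider fat mark and other spots, with exact Poisson 95% intervals for counting error. Pck1 is high in fat-marked spots of every airway class and at 1.31 CPM or less outside them, while Rbp4 climbs with the airway genes to 43.2 and 42.4 CPM outside the fat mark.

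Across the spots of a section, the genes most like Pck1 and Rbp4 were found by the correlation of log2(1 + UMIs per 10000 UMIs of the spot), as a description over spots that share a library and depth. The mean over the 4 sections, among 9984 genes with 50 or more UMIs in each, was highest for Fabp4 (0.173), Ifi27l2a, C4b, Dnase2a and Gin1 with Pck1, and for Dcxr (0.116), Anxa8, Tmem212, Tppp3 and Selenbp1 with Rbp4, all weak. That filter leaves out most fat genes, which are at background in the primary tumours. Over the 2 lungs (11263 genes), a choice made after the data were seen, Pck1 was most like Cfd (r = 0.420 in mouse A, 1697 spots, and 0.553 in mouse B, 2780 spots), Car3 (0.344 and 0.565), Fabp4 (0.286 and 0.418), Gpd1 and Bpifa1. Adipoq, Plin1 and Cidec had too few UMIs to be ranked, and their r with Pck1 was 0.0336, 0.0431 and 0.145 in mouse A and 0.502, 0.460 and 0.501 in mouse B. Rbp4 was most like Cyp2f2 (0.215 and 0.309), Gabrp, Ccdc153, Cbr2 and Fam183b. Pck1 and Rbp4 had a correlation of 0.0235 and 0.0548 with each other in the lungs.

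Among other genes of fat, the marked lung spots (1 or more UMIs of the marking genes) were called higher in a few, by edgeR with TMM. The like fit over 4 sections made many more false calls on simulated data than its threshold allows, and the fit of the lungs alone was not simulated, so that single calls among these genes are uncertain. Of 9 droplet and lipolysis genes tested 2 were higher and none lower. Gpd1, which makes glycerol 3-phosphate, rose by 1.99 (SE 0.40, adjusted p = 0.000576, edgeR), from 7.29 to 19.0 CPM in mouse A and from 4.69 to 24.7 CPM in mouse B, while Adrb3, a fat cell adrenoceptor, was called on mouse B alone. Of 13 genes of fatty acid and triglyceride synthesis 2 were higher, Thrsp (2.89), a lipogenesis regulator, and Slc2a4 (2.37), the insulin-responsive glucose transporter. Of 5 further adipokines and surface genes 1 was higher, Retn (3.95, SE 0.53), which encodes resistin. None of 6 adipocyte transcription factors was called in either direction, with a median of 0.04.

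Of 8 brown fat genes 3 were higher, Cidea, a droplet protein, and Cox8b and Cox7a1, which are also muscle genes of the respiratory chain. Cidea (2.57, adjusted p = 0.0252) rested on 2 and 9 UMIs in the marked spots. Cox8b (2.48) was at 9.498 against 8.503 CPM in mouse A and 62.3 against 6.36 CPM in mouse B, and Cox7a1 was higher in mouse B alone. Ucp1, the uncoupling protein that defines brown fat, had 0 and 1 UMIs in the wider marked spots of mouse A and mouse B, and Lep, the leptin gene of white fat, had 0 in both, of 1 and 2 UMIs in the whole sections.

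The 15 hepatocyte genes summed to 73.5 CPM in the wider marked spots against 15.5 CPM elsewhere in mouse A, and to 228 against 12.2 CPM in mouse B. Of these 15 hepatocyte genes 12 had 0 UMIs in the wider marked spots of mouse A and 9 in those of mouse B, and Alb, Apoa1 and Ttr, the defining secreted proteins of hepatocytes, had 0 in both, out of a total of 14, 5 and 3 UMIs (mouse A) and 11, 5 and 10 UMIs (mouse B) over the whole lung section. Under the mark of 1 UMI, 1 of the 3 Ttr UMIs of mouse A lay in marked spots. With 95% confidence 0 UMIs allow up to 22.6 CPM in mouse A and 8.23 CPM in mouse B. Of the 4 hepatocyte genes tested in the lungs 1 was higher, Cyp2e1 (4.86, SE 0.41, adjusted p = 1.83e-15, edgeR), a cytochrome P450 of liver that fat also makes, at 21.4 against 1.59 CPM in mouse A and 77.1 against 1.88 CPM in mouse B. The other 3 were at 1.75 (Ahsg), 1.35 (Fga) and 0.76 (Ambp), with adjusted p of 0.230, 0.614 and 0.884. Of 4 further gluconeogenesis genes tested 1 was higher, Pcx (0.85, SE 0.18), the pyruvate carboxylase. Aldh1a1, an enzyme of retinoic acid synthesis, was higher by 0.67 (SE 0.12, adjusted p = 0.000137, edgeR).

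The fat-marked spots also held other tissue. All 6 cardiac muscle genes tested were called higher in the lung fit, but of these only Tnnt2 (1.84, SE 0.15) was higher in both mice, and summed over the list they were at 1041 against 290 CPM in mouse A and 5585 against 390 CPM in mouse B under the wider mark. Fibroblast genes were at 4762 against 784 CPM and 5454 against 1770 CPM, with 5 of 6 called higher, among them Lum (2.22) and Col3a1 (1.20). Skeletal muscle genes were at 159 against 37.2 CPM and 245 against 27.8 CPM, with Ckm (2.29) called of 4 tested. Endothelial genes stood at 937 against 2140 CPM and 725 against 1105 CPM, with Cdh5 called lower (-0.55). The 4 tumour cell genes were at 141 against 88.0 CPM in mouse A and 1028 against 1040 CPM in mouse B under the wider mark, and Csf3 (-0.61) and Plau (-0.58) were lower in the lung fit. Alveolar genes stood at 6991 against 12532 CPM in mouse A and 3437 against 7150 CPM in mouse B under the wider mark. Mammary epithelial genes had at most 6.12 CPM in the marked spots, and none of 7 macrophage, 2 mesothelial, 3 epidermal or 4 alveolar genes tested was called. The part of these tissues in the values of the members was not tested.

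The loss of Rbp4 from tumour-bearing lung, on which it was picked, is described by spots with 5 or more UMIs summed over Csf3, Mmp3, Plau and Hmga2, a mark chosen after the data were seen. In the lung of mouse B 1331 such spots held 2.80 CPM of Rbp4 (2.12 to 3.63) against 11.4 CPM (9.39 to 13.7) in the 1449 others, and 2.54 against 10.7 CPM once the wider fat-marked spots were left out. Among spots with neither the fat mark nor 300 airway CPM, it was at 1.08 CPM (0.650 to 1.69, 19 UMIs) against 2.95 CPM (1.57 to 5.04, 13 UMIs). These intervals overlapped only at their ends, which does not show that the levels were alike, and the difference was not tested. In the lung of mouse A, where 41 spots carried the tumour mark, Rbp4 was at 9.40 CPM (2.56 to 24.1) against 13.3 CPM. Pck1 stood at 0.984 against 2.82 CPM in mouse B and, once fat-marked spots were left out, at 0.399 (0.172 to 0.786) against 0.514 CPM (0.167 to 1.20). In mouse A it stood at 2.35 CPM (0.0595 to 13.1, 1 UMI) against 1.40 CPM.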

How the data were processed

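The values are UMI counts per gene and spot, which the authors deposited without normalization as 1 matrix per section. They were made with Space Ranger, version 2.0.0 by the headers of the deposited matrices. The build, mm10, is that of the submitters' processing notes. From the deposited counts, spots with more than 200 genes were kept and UMIs were summed by gene and section, or by gene, section and mark, with CPM as UMIs per 1000000 UMIs of the same spots. Sums were tested in R 4.3.3 with edgeR 4.0.16 (low counts filtered, TMM, quasi-likelihood test, Benjamini-Hochberg adjustment over all genes tested, threshold 0.05), with DESeq2 1.42.0, library sizes only, no filter, a robust prior and other marks as alternatives. On simulated data the fit between tissues made almost no false call, while the fit between marked and other spots over 4 sections made many more than its threshold allows, with TMM more than with library sizes only. Intervals on single sections are exact Poisson or Clopper-Pearson intervals at 95%, or conditional binomial for ratios, and cover counting error only, since spots are not replicates. Where a section had 0 UMIs, the upper limit is that of the Poisson interval.

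The contrast planned as the main one, with 3 or more UMIs as the mark, could not be fitted, because only 1 section held 5 marked spots, and the planned lower mark of 1 UMI carries the test. Genes named from a list are the 2 with the largest change among those called and moving the same way in both lungs, with Alb, Apoa1 and Ttr and the members added. Members and lists were chosen with earlier results of these data known. Of the listed genes, 3 were not analysed here. The list of retinoid genes is not reported here as a whole. The replicate numbers name the mouse, so sections of the same number pair by animal, although the deviations of the 2 sections of a mouse from their tissue means had a correlation of -0.314 over 15267 genes.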

Additional observations from a re-analysis of the deposited data

Results flagged for a closer look

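The contrast between spots with 1 or more UMIs of Adipoq, Plin1 or Cidec and other spots differed between lung and primary tumour for 4 members, by the test of that difference in edgeR with Benjamini-Hochberg adjustment. Over all 18814 genes tested, 0.0904% were called. The log2 difference, lung minus primary tumour, was 6.26 for Pck1 (SE 0.88, adjusted p = 3.40e-09), 4.47 for Cfd (SE 0.55, adjusted p = 1.46e-12), 4.41 for Car3 (SE 0.60, adjusted p = 6.11e-10) and 3.96 for Fabp4 (SE 0.31, adjusted p = 2.39e-32). The marked spots of the primary tumours, 11 and 120, rest on genes that stood at or under the receptor genes there, and the part of that background in the difference was not tested. The test of the difference was not repeated by DESeq2 or with a robust prior. Neither of these called Pck1, Cfd, Car3 or Fabp4 in the marked contrast over 4 sections. That contrast also made many more false calls on simulated data than its threshold allows.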

How the results depend on the processing

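Between lung and primary tumour, the 1139 genes called became 1817 with the mouse as a replicate block, 2565 with the pairs crossed (chosen after the data were seen), 2022 with no filter, 3711 by DESeq2 and 328 with library sizes only, which moved the median of all genes to -0.31. Car3 and Cfd were called with the replicate block (adjusted p = 0.0262 and 0.00287, edgeR) and Rbp4 was not (0.0769). Rbp4, Cfd and Car3 were called by DESeq2 (0.00128, 0.00475 and 0.0113) and by edgeR with no filter (0.00997, 0.000746 and 0.00738). Lpl lost its call with library sizes only (0.133), with more than 500 genes per spot (0.0670) and without the primary tumour of mouse B (0.227). The sign turned for Adipoq without the primary tumour of mouse B (1.77) and with crossed pairs (0.014), for Plin1 with library sizes only (-0.095) and without fat-marked spots (-0.42), for Fabp4 in the same settings (-0.057 and -0.071), and for Pck1 with the replicate block (0.43), crossed pairs (0.42) and without the primary tumour of mouse B (2.49), none of them called. It also turned with 1 mouse left out, to 1.28 for Adipoq, -0.24 for Fabp4 and 2.28 for Pck1 without mouse B and to -0.81 for Plin1 without mouse A, with no test.

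For spots with 1 or more UMIs of the marking genes in 4 sections, the 227 genes called became 1 with no replicate block, 14 by DESeq2, 3 in the primary tumours alone, 746 with 300 CPM as the mark, and 20 to 140 without either mouse. Without mouse A 55 were higher and 85 lower, and without mouse B Pck1 had too few counts to be tested. Lpl lost its call without either mouse, at 0.74 without mouse A (adjusted p = 0.0663, edgeR) and at -0.15 without mouse B. Pck1 turned to -1.31 in the primary tumours alone. In the lungs alone 219 became 44 by DESeq2. The causes were not tested. The test of the difference between tissues could not be fitted without a mouse.

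In the lung of mouse B, the log2 ratio of Pck1 (7.51) was 8.73 without touching spots, 5.46 and 8.94 with 1 and 5 UMIs as the mark, and 8.78 and 8.44 with Adipoq or Plin1 alone. Its share in marked spots (45.8%) was 60.4% and 37.5% with 1 and 5 UMIs as the mark, and 79.2%, 72.9% and 70.8% with 3, 5 and 8 UMIs of the wider mark. For Rbp4 the ratio (2.98) was 1.26 with 1 UMI and 4.40 with Adipoq alone, and the share (3.53%) was 7.65% and 1.18% with 1 and 5 UMIs, and 10.6% and 8.82% with 3 and 5 UMIs of the wider mark. With 16 and 48 UMIs of Pck1 in the lungs, depth limits every statement on single spots.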

Other observations

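Cyp2e1, a cytochrome P450 known from liver, gave 9 of its 26 UMIs in the marked lung spots of mouse A and 78 of its 133 in those of mouse B (1 or more UMIs of Adipoq, Plin1 or Cidec), a pattern like that of Pck1. Among the cardiac genes, Nppa, an atrial hormone gene, had 0 UMIs in the marked spots of mouse A and 245 CPM in those of mouse B against 22.7 CPM in other spots. Myh6, a cardiac myosin, was at 126 against 133 CPM in mouse A and 1038 against 147 CPM in mouse B. Tnnt2, a troponin, was higher in both, at 145 against 84.2 CPM in mouse A and 730 against 139 CPM in mouse B. These values were singled out after they were seen.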
